A study of Mus musculus with 15 samples.

Results

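The MYC, MAX and MXD network was represented by 10 genes (Myc, Mycn, Mycl, Max, Mxd1, Mxd3, Mxd4, Mnt, Mga and Mlx), taken by symbol from the 34432 genes listed in both expression tables. RNA-sequencing covered 15 libraries of CT26, an undifferentiated mouse colon carcinoma line grown in culture, in 2 experiments with 3 replicates per group. In the knockdown experiment, cells carrying a control hairpin (shControl) were set against cells carrying a doxycycline-inducible hairpin against Prmt1 (shPrmt1), which per the study's methods received doxycycline for 3 days. The labels do not say whether shControl cells received it too. In the inhibitor experiment, CT26 cells without a hairpin were kept for 48 hours in vehicle or in either of the inhibitors MS023 and GSK3368715, both at 6 µM. Both compounds inhibit type I arginine methyltransferases, a class that includes enzymes other than PRMT1. The labels name no clone or pool for the hairpin lines, so the results hold for these lines of 1 tumour cell type.

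MYC drives transcription of genes for ribosome production, nucleotide synthesis and cell growth, and binds DNA only as a dimer with MAX at E-boxes, short sites with the core CACGTG. MXD proteins, MNT and MGA also pair with MAX at E-boxes but recruit corepressors, so the network is described as a contest between activating and repressing partners for MAX. A parallel branch pairs MLX with MondoA (Mlxip) or ChREBP (Mlxipl), which respond to glucose metabolites. PRMT1 places most of the asymmetric dimethylarginine found in cells, on histone H4 and on many RNA-binding proteins.

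The core E-box is shown in capitals where it lies in the promoters of the members themselves, since it is the site through which these proteins act. RefSeq promoters (GRCm38.p6, 250 bases before to 50 after the transcription start) matched 9 of the 10 members by symbol. Myc had no match, so its promoter was not searched. CACGTG, which reads the same on both strands, lay in 4 of these 9, those of Mxd4, Mnt, Mlx and Max, while 7.15% of all 32851 promoters of this length held it. A stretch of 60 bases with each site, on the strand of the gene, is given for each, with the site in the middle for Mxd4, Mnt and Mlx and at the end for Max:
Mxd4 (chr5:34187897-34187956, minus strand): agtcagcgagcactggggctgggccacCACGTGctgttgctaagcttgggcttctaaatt
Mnt (chr11:74830774-74830833, plus strand): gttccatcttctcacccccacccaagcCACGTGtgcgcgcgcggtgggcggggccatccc
Mlx (chr11:101087223-101087282, plus strand): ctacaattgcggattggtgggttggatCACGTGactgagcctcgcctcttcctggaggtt
Max (chr12:76962246-76962305, minus strand): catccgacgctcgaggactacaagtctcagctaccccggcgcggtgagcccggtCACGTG
The site began 219 bases before the start in Mxd4, 123 bases before it in Mnt and 40 bases before it in Mlx. In Max it began 3 bases before the RefSeq start and so spanned it. GENCODE vM21 places the start of Max at chr12:76962201 on the minus strand, so the site lay wholly before that start. The variant CACGCG, read on either strand and never matching the same 6 bases as CACGTG, lay in the promoters of 2 members, Mga and Mycl, and in 9.27% of all promoters. These letters are a description of the sequence, since binding was not measured.

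The libraries held 17284091 to 29233738 reads on genes in the knockdown experiment and 40119305 to 93697833 in the inhibitor experiment. Values are the deposited normalized counts, meaning reads per gene after the authors' correction for library size, which does not correct for gene length. Prmt1, the targeted gene, stood at 5601, 5717 and 5620 in shControl and at 669, 761 and 683 in shPrmt1. It was 3.00 lower on the log2 scale (SE 0.07, adjusted p = 3.79e-07 by limma) in shPrmt1 and was not called under either inhibitor. All 8 mesenchymal markers reached 10 normalized counts in every library of both tables, with Vim, Fn1 and S100a4 the highest. Of 11 colon epithelium markers, only Krt18 and Krt20 did so, and the defining markers Epcam and Cldn7 were at 0 in every library. No leukocyte marker of 10 reached this level in every library, their summed level was at most 34.2, and 3 of 8 endothelial and fibroblast markers did in the knockdown table and 5 of 8 in the inhibitor table.

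Some markers moved with the groups beside the members. In shPrmt1, Col1a1 (0.97), Pdgfrb (0.69), Snai2 (0.41), Zeb2 (0.33) and Fn1 (0.33) were called higher and Krt18 (-0.41) and S100a4 (-0.30) lower. In MS023, Krt8 (1.83), Krt18 (0.55) and Pdgfrb (0.40) were called higher and Col1a1 (-0.52) and S100a4 (-0.29) lower, and in GSK3368715 Pdgfrb (0.64) and Krt18 (0.27) were called higher, all as log2 fold changes by limma. The summed level of the endothelial and fibroblast markers was 2351 to 2986 in shControl, 3647 to 5537 in shPrmt1, 21007 to 21627 in vehicle, 14101 to 18428 in MS023 and 20440 to 22863 in GSK3368715. That of the colon epithelium markers was 729 to 812, 544 to 670, 1286 to 1449, 1789 to 1879 and 1449.8 to 1617 in the same order. The mesenchymal sum was 107083 to 107524, 98821 to 110216, 334831 to 365131, 313600.02 to 337018 and 325138 to 358114 in that order. Single genes made up most of each sum. In the same order, the means were 2116, 4207, 18543, 13071 and 17227 for Col1a1, of the endothelial and fibroblast list. They were 572, 431, 941, 1372 and 1137 for Krt18, and 68130, 64325, 196570, 200050 and 198260 for Vim. The part of the marker lists in the members' values was not tested.

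The shPrmt1 replicate 2 library stood apart from the others in base composition. Its genes rich in GC were low against its genes poor in GC by 0.43 on the log2 scale, while the other 5 knockdown libraries lay between -0.01 and 0.17 and the 9 inhibitor libraries between -0.09 and 0.10.

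Myc was the most abundant member in every group when counts were divided by the length of the longest annotated transcript. In vehicle cells it stood at 3715 normalized counts per kb, followed by Max at 1373, Mlx at 998, Mga at 670, Mnt at 544, Mxd3 at 485, Mxd4 at 226 and Mxd1 at 93.3. The ranges of the 3 vehicle libraries overlapped between Mga and Mnt and between Mnt and Mxd3, so that their order was not resolved. In shControl cells the per-kb order was Myc at 902, Max at 607, Mlx at 481, Mga at 242, Mxd3 at 146, Mnt at 139, Mxd4 at 32.6 and Mxd1 at 20.7, and only Mxd3 and Mnt overlapped. The tables were normalized separately, so levels were not compared between them. Dividing by the union of all annotated exons instead put Mlx above Max in both control groups, at 981 against 741 in vehicle cells, whereas Myc was again the highest at 3197.

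**Figure D1:**
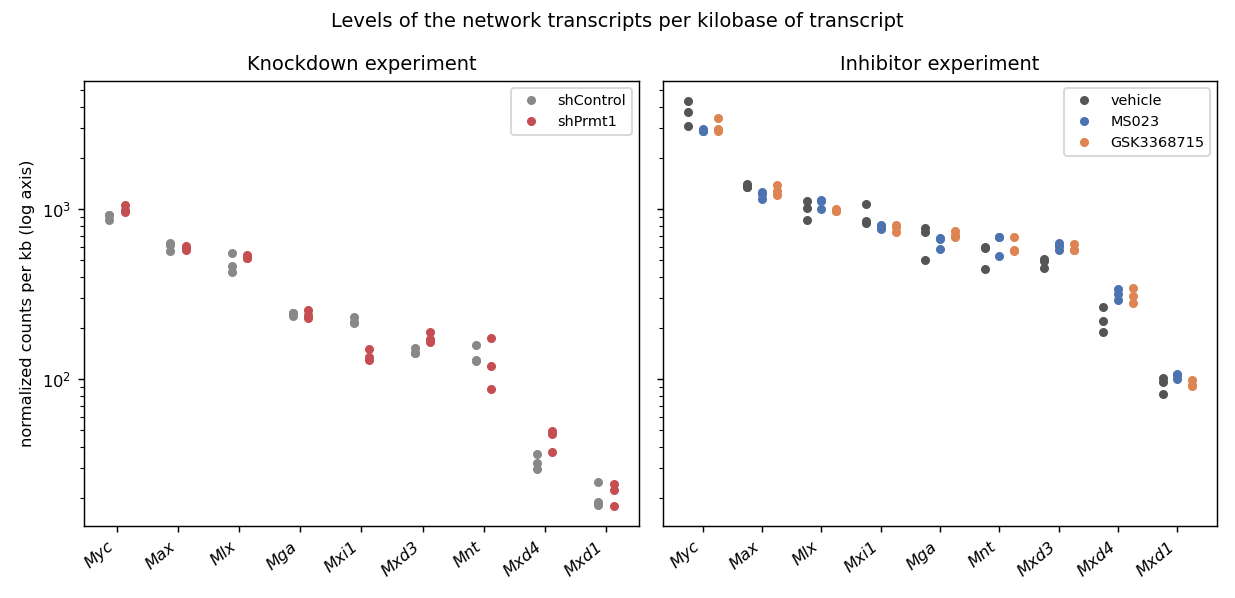
Normalized counts per kb of the longest transcript (log axis) of 8 members and Mxi1 in each library of the knockdown experiment (left) and the inhibitor experiment (right), with 1 point per library and genes ordered by the control mean. Myc was highest in every group and Mxd1 lowest, at 93.3 in vehicle cells and 20.7 in shControl cells.

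The other MYC paralogs were close to absent at this depth. Mycn, the paralog of neural and embryonic tissue, had no read in the 3 shControl libraries and 1, 1 and 0 reads in shPrmt1. It had 0, 2 and 1 reads in vehicle, 1, 0 and 0 in MS023, and 10, 2 and 1 in GSK3368715. Mycl, the paralog of lung and dendritic cells, had 1 read in vehicle replicate 2 and 0 in each of the other 14 libraries. Both fell under the filter of 10 normalized counts in 3 libraries and were not tested, which left 8 of the 10 members in every test.

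No member passed the test after knockdown of Prmt1, although 3 were higher in every knockdown library than in any control library. Of all 11485 genes tested, 14.7% were called at an adjusted p under 0.05 (limma, Benjamini-Hochberg), against 0 of 8 members. At an unadjusted p under 0.05 there were 3 members, Myc, Mxd3 and Mxd4, and edgeR and DESeq2 on the recovered reads also called 0. Groups did not overlap for 3 of 8 members (37.5%), and for 38% of all genes tested. In bulk RNA, fewer cells with a transcript and less transcript per cell cannot be told apart.

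Under the inhibitors the repressor genes Mxd3 and Mxd4 rose, and Myc fell with MS023. MS023 called 3 of 8 members (37.5%), with 27.9% of all 13014 genes tested called, and groups did not overlap for 4 members against 44.5% of all genes. GSK3368715 called 2 of 8 members (25%) with 9.64% of all genes called, and groups did not overlap for 2 members against 27.7% of all genes. Both inhibitors were compared with the same 3 vehicle libraries, so their values stand side by side and are not independent of each other.

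**Figure D2:**
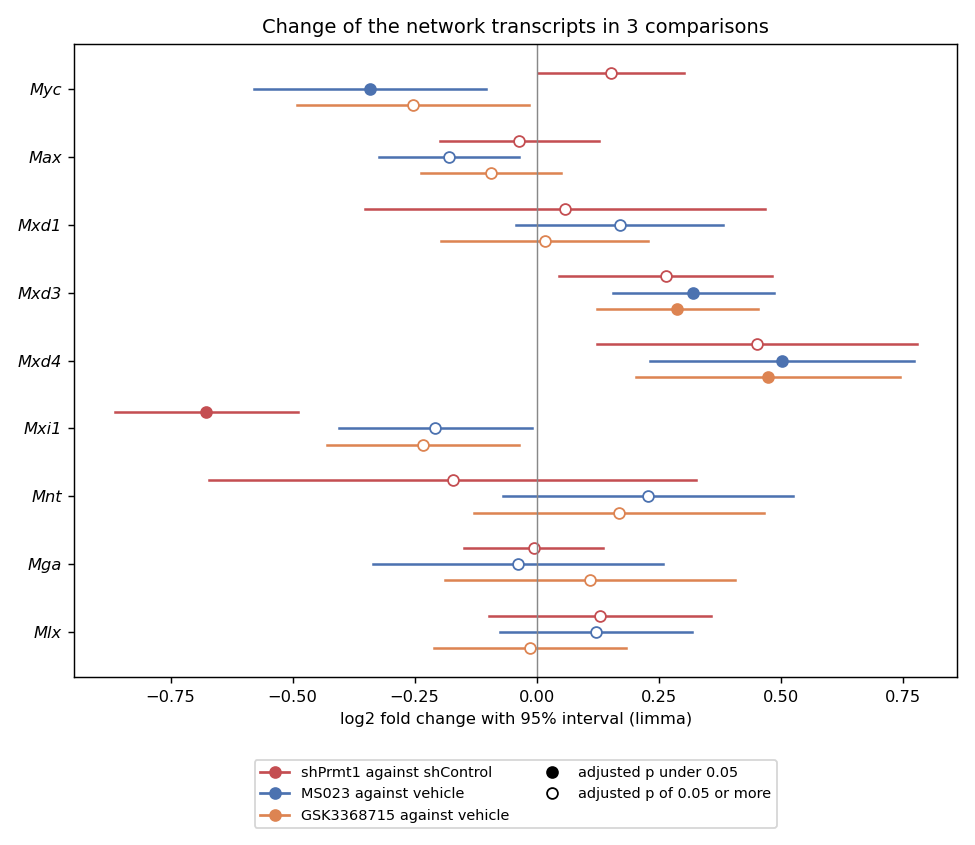
Log2 fold changes (points) with 95% intervals (lines) of 8 members and Mxi1 in shPrmt1 against shControl and in each inhibitor against vehicle, from limma, with filled points where the adjusted p was under 0.05. Mxd3 and Mxd4 lay above 0 in all 3 comparisons, from 0.26 to 0.50, and Mxi1 was lowest in shPrmt1 at -0.68.

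Myc lies at chr15:61985391-61990374 on the plus strand (mm10, GENCODE vM21) and encodes the activating partner of the network. Its normalized counts were 2161, 2014 and 2153 in shControl and 2468, 2264 and 2303 in shPrmt1. All 3 knockdown libraries were above all 3 controls, by a margin that did not pass the adjusted test, with a log2 fold change of 0.15 (SE 0.07, adjusted p = 0.153 by limma). In the inhibitor experiment, Myc stood at 10074, 7214 and 8766 in vehicle, at 6775, 6720 and 6879 in MS023, and at 6697, 8083 and 6955 in GSK3368715. The MS023 libraries lay within a narrow band below all vehicle libraries, while GSK3368715 replicate 2 lay above vehicle replicate 2. The mean in MS023 was 78.2% of vehicle, a log2 fold change of -0.34 (SE 0.11, adjusted p = 0.0371 by limma). In GSK3368715 it was 83.4% of vehicle, a log2 fold change of -0.25 (SE 0.11, adjusted p = 0.168 by limma).

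The call on Myc in MS023 cells was present in 4 of the 9 fits that left out a library. It was lost without vehicle replicate 1 (-0.23, adjusted p = 0.0979 by limma), without vehicle replicate 3 (-0.33, adjusted p = 0.0974) and without MS023 replicate 1, 2 or 3 (-0.33 to -0.35, adjusted p from 0.083 to 0.097). Rescaling of the libraries to the same total also ended the call (-0.31, adjusted p = 0.0613), as did a fit without limma's variance trend (adjusted p = 0.0814). Without vehicle replicate 2, the lowest vehicle library, the call was present for GSK3368715 (-0.38, adjusted p = 0.0239 by limma).

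Max, at chr12:76937269-76962201 on the minus strand, encodes the shared partner of MYC, MXD, MNT and MGA proteins. It varied little in the knockdown, at 1199, 1106 and 1230 in shControl and 1111, 1152 and 1183 in shPrmt1, with groups that overlapped. Its counts were 2736, 2625 and 2638 in vehicle, 2384, 2445 and 2239 in MS023 and 2471, 2698 and 2339 in GSK3368715. All MS023 libraries were below all vehicle libraries, with a log2 fold change of -0.18 (SE 0.06) and an adjusted p of 0.061 by limma that just missed the threshold. DESeq2 (adjusted p = 0.0453), a fit of these 6 libraries alone (adjusted p = 0.0497) and the fit without GSK3368715 replicate 2 (adjusted p = 0.0377) called it. In shPrmt1 and GSK3368715 the log2 fold changes were -0.04 and -0.09, with 95% intervals of -0.20 to 0.13 and -0.24 to 0.05.

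The MXD genes encode small repressors that rise when cells leave the cycle or differentiate, except Mxd3, which is known from cycling S-phase cells. Mxd3, at chr13:55325168-55329823, stood at 266, 249 and 250 in shControl and 302, 290 and 329 in shPrmt1. The groups did not overlap, and the log2 fold change was 0.26 (SE 0.10, adjusted p = 0.101 by limma). In the inhibitor experiment it stood at 884, 863 and 786 in vehicle, 1059, 999 and 1107 in MS023 and 1088, 1000 and 1004 in GSK3368715. Every treated library lay above every vehicle library. Mxd3 rose by 0.32 on the log2 scale (SE 0.07, adjusted p = 0.00951 by limma) with MS023, a call present in all 9 fits that left out a library. It rose by 0.29 (SE 0.07, adjusted p = 0.0368) with GSK3368715, a call present in 2 of those 9 fits, those without vehicle replicate 1 or 2 (adjusted p from 0.0523 to 0.128 in the others). That call was also lost with no filter on low values (adjusted p = 0.0532 by limma) and in a fit of these 6 libraries alone (adjusted p = 0.0873). Exons of Mxd3 share 105 bases with Prelid1 on the opposite strand, a gene with a mean of 8154 normalized counts in the knockdown table and 25360 in the inhibitor table, and whether counting used strand is not given in the sources used here.

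Mxd4, at chr5:34173883-34187720 on the minus strand, showed the largest log2 fold change of the 8 tested members in each comparison with a control. Its counts were 167, 138 and 148 in shControl and 230, 173 and 221 in shPrmt1, without overlap. The log2 fold change of 0.45 (SE 0.14) had an adjusted p of 0.0692 by limma. Without shPrmt1 replicate 2, the lowest of the knockdown libraries for Mxd4 and the library with the skewed base composition, it was 0.58 (adjusted p = 0.0126 by limma). With the GC slope of each library as a covariate, an alternative added after the data were seen, it was 0.60 (adjusted p = 0.00788 by limma), and Myc (0.19, adjusted p = 0.0207) and Mxd3 (0.31, adjusted p = 0.0411) were then called as well. That fit also called more genes of all kinds, 3063 of 11485 tested, against 1684 without the covariate.

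In the inhibitor experiment Mxd4 stood at 1236, 872 and 1024 in vehicle, at 1353, 1474 and 1575 in MS023 and at 1300, 1596 and 1428 in GSK3368715. The highest vehicle library was below the lowest library of either inhibitor. Mxd4 rose to 141% of vehicle with MS023, by 0.50 on the log2 scale (SE 0.12, adjusted p = 0.0119 by limma), and to 138% with GSK3368715, by 0.47 (SE 0.12, adjusted p = 0.0361). The MS023 call was lost only without MS023 replicate 3 (0.45, adjusted p = 0.0502 by limma), of the 9 fits that left out a library. For GSK3368715 the call was lost without vehicle replicate 2 (0.35, adjusted p = 0.0724 by limma), vehicle replicate 3 (0.47, 0.102), MS023 replicate 2 (0.47, 0.0573) or 3 (0.47, 0.0515), and GSK3368715 replicate 2 (0.40, 0.108) or 3 (0.48, 0.0803). It was also lost with no variance trend (adjusted p = 0.0768 by limma) and in a fit of these 6 libraries alone (adjusted p = 0.0813). Mxd4 shares 514 exonic bases on the opposite strand with the antisense gene Gm42846, which was not used here.

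Mxd1, at chr6:86647042-86669161, was the least abundant of the tested members per kb. Its counts of 88, 85 and 116 in shControl and 104, 113 and 83.7 in shPrmt1 overlapped, with a log2 fold change of 0.06 (SE 0.18, adjusted p = 0.849 by limma). It stood at 473, 384 and 450 in vehicle, 469, 494 and 503 in MS023 and 464, 424 and 430 in GSK3368715. Neither inhibitor group was separate from vehicle, with log2 fold changes of 0.17 (SE 0.10, adjusted p = 0.212 by limma) in MS023 and 0.02 (SE 0.10, adjusted p = 0.934) in GSK3368715. Mxd3 and Mxd4 were called with both inhibitors and Mxd1 with neither, but a difference between these genes was not tested. In MS023 the limma confidence interval of Mxd1 (-0.04 to 0.38) overlapped those of Mxd3 (0.16 to 0.49) and Mxd4 (0.23 to 0.77). In GSK3368715 that of Mxd1 (-0.20 to 0.23) also overlapped those of Mxd3 (0.12 to 0.45) and Mxd4 (0.20 to 0.74).

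Mxi1 (also known as Mxd2), at chr19:53310518-53375810, was outside the 10 members but belongs to the same family. It stood at 1092, 1171 and 1084 in shControl and 653, 760 and 682 in shPrmt1. Every knockdown library was far below every control, at 62.6% of the control mean. Mxi1 fell by 0.68 on the log2 scale (SE 0.08, adjusted p = 0.00149 by limma), a call present in all fits that left out a library. In the inhibitor experiment it was 4276, 5399 and 4176 in vehicle, 3851, 4072 and 3994 in MS023 and 3687, 3958 and 4066 in GSK3368715. Treated libraries were again below all vehicle libraries, with log2 fold changes of -0.21 (SE 0.09, adjusted p = 0.108 by limma) and -0.23 (SE 0.09, adjusted p = 0.126) that were not called. The size of the difference between the knockdown and the inhibitors was not tested, as the tables were normalized separately.

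**Figure D3:**
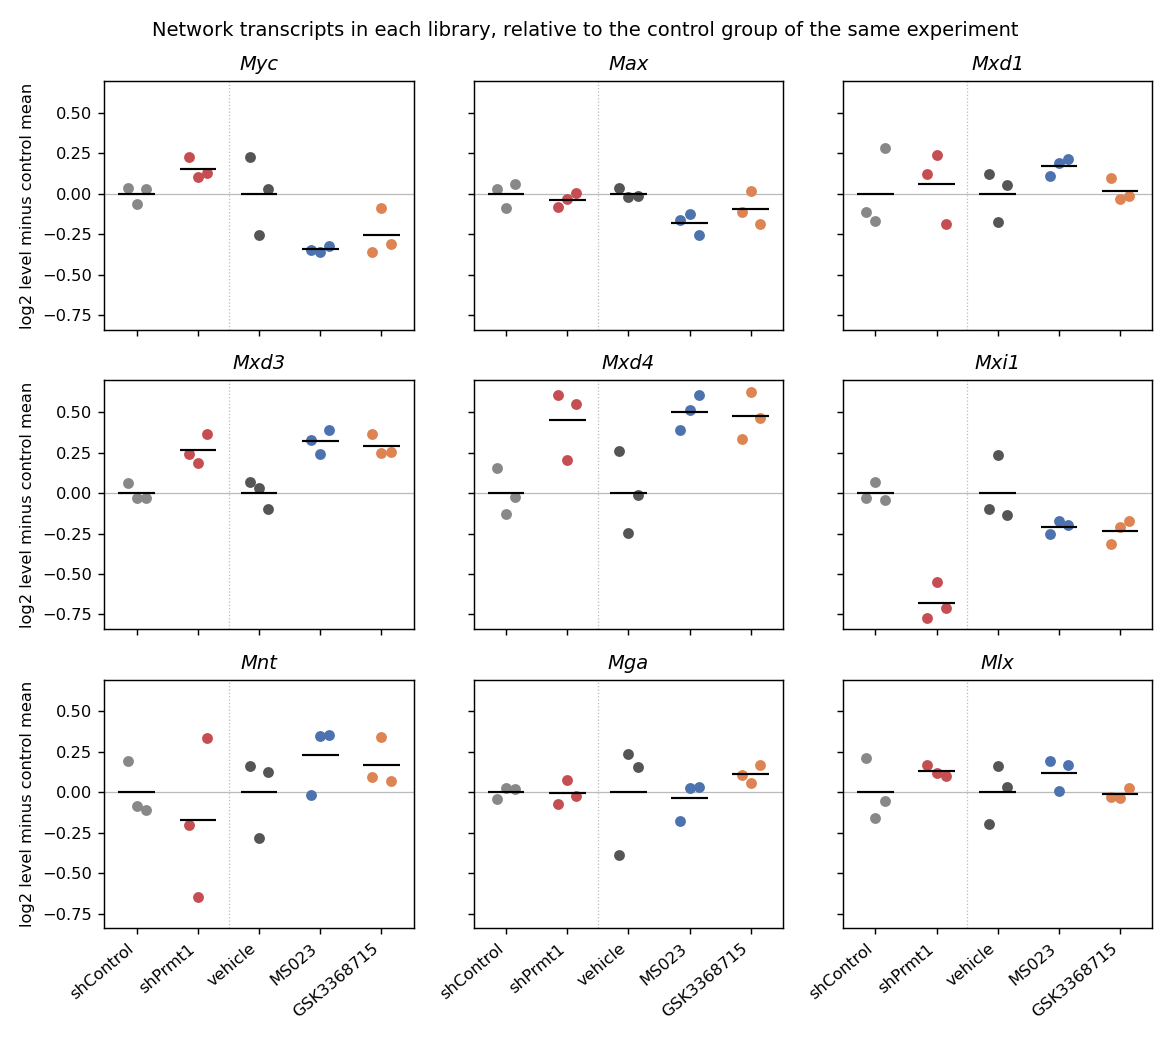
Level of 8 members and Mxi1 in each library, as log2(normalized count + 1) minus the mean of the control group of the same experiment (shControl to the left of the dotted line, vehicle to its right), with points for libraries and bars for group means. Mxd3 and Mxd4 sat above their controls in all 3 treated groups, Myc was above in shPrmt1 and below in MS023, and the shPrmt1 libraries of Mnt were spread from 405 to 800 normalized counts.

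Mnt, at chr11:74830920-74845725, encodes the broadly expressed repressor partner of MAX. Its counts were 726, 598 and 589 in shControl and 552, 405 and 800 in shPrmt1. The knockdown libraries surrounded the controls, and replicate 2 was the lowest. Mnt has the highest GC content of the members (59.5% of its longest transcript), and its log2 fold change of -0.17 (SE 0.22, adjusted p = 0.624 by limma) became 0.07 without replicate 2 and 0.07 with the GC slope as a covariate. The part of GC content in its value was not tested. In vehicle it stood at 2762, 2030 and 2697, in MS023 at 2447, 3149 and 3161, and in GSK3368715 at 2642, 3130 and 2594. All 3 groups overlapped, with log2 fold changes of 0.23 (SE 0.13, adjusted p = 0.233 by limma) and 0.17 (SE 0.13, adjusted p = 0.473).

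Mga, at chr2:119897228-119969581, encodes a large factor that pairs with MAX and anchors a variant Polycomb complex, PRC1.6. Its counts of 3276, 3435 and 3423 in shControl and 3209, 3564 and 3326 in shPrmt1 overlapped and gave the narrowest interval of the members in this comparison, a log2 fold change of -0.01 with a 95% interval of -0.15 to 0.14. In the inhibitor experiment it stood at 7005, 10793 and 10221 in vehicle, 8128, 9339 and 9403 in MS023 and 9871, 9547 and 10306 in GSK3368715. Vehicle replicate 1 was well below the other two vehicle libraries, and this library also had low values of long transcripts against short ones (a difference of -0.13 on the log2 scale, with the other inhibitor libraries from -0.03 to 0.04), while Mga has the longest transcript of the members at 13931 bases. The part of transcript length in its value was not tested. With all libraries the log2 fold change in MS023 was -0.04 (SE 0.13, adjusted p = 0.858 by limma), and without vehicle replicate 1 it was -0.23 (adjusted p = 0.0363). In GSK3368715 it was 0.11 (SE 0.13, adjusted p = 0.659 by limma), and -0.08 without that library (adjusted p = 0.506).

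Mlx, at chr11:101087277-101092207, encodes the partner of MondoA and ChREBP. It stood at 1086, 841 and 906 in shControl and 1056, 1019 and 1009 in shPrmt1, with overlap and a log2 fold change of 0.13 (SE 0.10, adjusted p = 0.405 by limma). Its counts in vehicle were 1702, 2187 and 1992, in MS023 2226, 1959 and 2191, and in GSK3368715 1908, 1905 and 1982. Both inhibitor groups overlapped vehicle, with log2 fold changes of 0.12 (adjusted p = 0.341 by limma) and -0.01 (adjusted p = 0.939). Mlx shares 385 exonic bases with Psmc3ip on the opposite strand, a gene with a mean of 328 normalized counts in the knockdown table and 786 in the inhibitor table.

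The glucose-sensing partners of MLX were measured beside it. Mlxip (MondoA) had log2 fold changes of 0.19 in shPrmt1 (adjusted p = 0.163 by limma), 0.28 in MS023 (adjusted p = 0.066) and 0.20 in GSK3368715 (adjusted p = 0.254). It was called in MS023 by DESeq2 (adjusted p = 0.0362), in a fit of these 6 libraries alone (adjusted p = 0.0304), after rescaling to the same total (adjusted p = 0.0421) and without GSK3368715 replicate 2 (adjusted p = 0.0233), and in shPrmt1 without replicate 2 (0.26, adjusted p = 0.0134). Mlxipl (ChREBP) was low, with vehicle libraries at 36.7, 12.4 and 9.65, MS023 at 48.7, 42.7 and 23.3 and GSK3368715 at 24.4, 37.6 and 31.2 normalized counts. Its groups overlapped, and the fold change over vehicle turned on vehicle replicate 1, being 1.10 in MS023 with it (adjusted p = 0.101 by limma) and 1.65 without it (adjusted p = 0.00945), and 0.85 in GSK3368715 with it (adjusted p = 0.275) and 1.41 without it (adjusted p = 0.0427).

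Of 4 genes known as targets of MondoA and ChREBP with MLX, Txnip and Arrdc3 passed the filter, and Arrdc4 and Pklr were at or near 0. Txnip, which restrains glucose uptake and binds thioredoxin, was 668 ± 52.8 in shControl and 1521 ± 54.2 in shPrmt1 (SD, n = 3). It rose by 1.19 on the log2 scale (SE 0.08, adjusted p = 1.04e-04 by limma). In MS023 it was 17479 ± 1077 against 9357 ± 2224 in vehicle (SD, n = 3) and rose by 0.93 (SE 0.22, adjusted p = 0.0109). In GSK3368715 it was 16465 ± 6079 (SD, n = 3), a log2 fold change of 0.78 (SE 0.22) whose adjusted p of 0.0503 by limma lay next to the threshold, and groups did not overlap. EdgeR (adjusted p = 0.0471) and DESeq2 (adjusted p = 0.048) called it, as did 2 of the left-out fits, without vehicle replicate 1 (0.94, adjusted p = 0.0303) and without GSK3368715 replicate 3 (0.94, adjusted p = 0.0462). Arrdc3, an arrestin-domain relative, rose by 0.33 (adjusted p = 0.0487 by limma), 0.25 (adjusted p = 0.0486) and 0.36 (adjusted p = 0.0237) in the 3 comparisons. These calls were near the threshold, and 1 of 6, 2 of 9 and 6 of 9 fits without a library gave them.

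The relative makeup of the network can be expressed as each member's share of the summed per-kb level of the 10 members, a description with no test. Myc made up 45.6% ± 4.68 of this sum in vehicle, 38.7% ± 0.51 in MS023 and 40.2% ± 1.78 in GSK3368715 (SD, n = 3). Mxd4 made up 2.77% in vehicle, 4.22% in MS023 and 4.05% in GSK3368715, and Mxd3 5.999%, 8.07% and 7.72%. In the knockdown experiment Myc made up 35.1% ± 0.72 in shControl and 36.7% ± 1.38 in shPrmt1 (SD, n = 3). Mxd4 went from 1.27% to 1.64% there and Mxd3 from 5.70% to 6.45%, while Max was 23.6% and 21.7%. The sum leaves out Mxi1, which in both control groups stood above Mxd1, Mxd3 and Mxd4 per kb. Mxi1 was at 221 per kb in shControl and 139 in shPrmt1, and at 917 in vehicle, 789 in MS023 and 775 in GSK3368715. The share of Myc was below that of every vehicle library in all 3 MS023 libraries, whereas GSK3368715 overlapped vehicle (38.7% to 42.2% against 41.0% to 50.3%) and shPrmt1 overlapped shControl (35.5% to 38.2% against 34.3% to 35.6%).

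GSK3368715 and MS023 were also compared with each other at the same dose and time, as the only pair of compounds. Of all genes tested 0.515% were called, and of 8 members 0 were called, with no member at an unadjusted p under 0.05 and 0 calls by edgeR or DESeq2. For Myc the difference, GSK3368715 minus MS023, was 0.09 with a 95% interval of -0.15 to 0.33. For Mxd3 it was -0.03 (-0.20 to 0.13) and for Mxd4 -0.03 (-0.30 to 0.24). Over the members the intervals reached up to 0.45 in Mga (0.15, -0.15 to 0.45) and down to -0.37 in Mxd1 (-0.15, -0.37 to 0.06). Myc was called with MS023 and not with GSK3368715, but the direct test between the compounds did not call it (adjusted p = 0.774 by limma).

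Genes around the network were read from hand-written lists of cofactors, corepressors, stability factors and targets. In shPrmt1, 7.5% of all genes were called higher and 7.17% lower, in MS023 13.7% and 14.1%, and in GSK3368715 5.16% and 4.47%. These shares are the background for the counts of each list, and the median log2 fold change of all genes was close to 0 in each comparison.

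**Figure D4:**
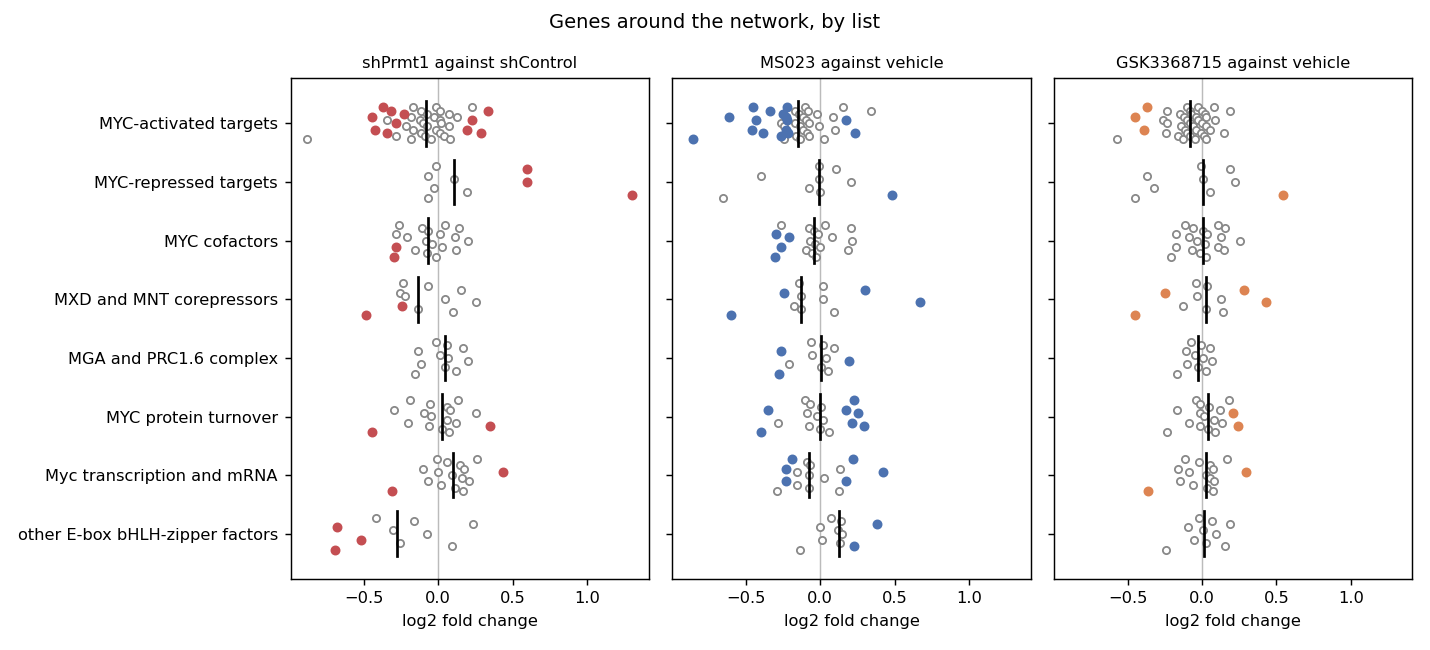
Log2 fold changes of the tested genes of 8 lists in the 3 comparisons, with 1 point per gene, filled where the adjusted p (limma) was under 0.05, and a black bar at the median of each list. The MYC-activated list had medians of -0.08, -0.15 and -0.08, and the points filled below 0 in it numbered 7, 14 and 3.

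More of the genes that MYC activates were called lower than higher in each comparison, though few were called in GSK3368715. Calls in either direction made up 27.5% of the list in shPrmt1, 40% in MS023 and 7.5% in GSK3368715. Of all genes tested, 14.7%, 27.9% and 9.64% were called. Of 40 such genes, 4 were called higher and 7 lower in shPrmt1, with a median log2 fold change of -0.08. Among the called genes, the largest decreases were in Ptma (-0.45), a nuclear protein of proliferating cells, Ldha (-0.43), lactate dehydrogenase, and Shmt2 (-0.37), of mitochondrial one-carbon metabolism. The largest called increases were in Ifrd2 (0.34), Impdh2 (0.29), of guanine nucleotide synthesis, and Wdr12 (0.23), of ribosome assembly. Tert, the telomerase catalytic subunit, had a lower value still (-0.88, adjusted p = 0.067 by limma) without passing the test. Its level was low, at 44.9 ± 9.95 normalized counts in shControl and 24.2 ± 7.41 in shPrmt1 (SD, n = 3). In MS023, 2 were called higher and 14 lower (median -0.15), led by Tert (-0.85), Rrs1 (-0.62) and Nop56 (-0.46), both of ribosome assembly, while Impdh2 (0.23) and Shmt1 (0.18) were higher. In GSK3368715, 0 were called higher and 3 lower (median -0.08), namely Rrs1 (-0.45), the folate carrier Slc19a1 (-0.39) and Nop56 (-0.37). DESeq2 on the recovered reads called 6 there, 1 higher and 5 lower.

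Of 12 genes that MYC represses, 9 were tested. In shPrmt1, 3 rose, namely Btg2 (1.30), an antiproliferative gene, Gadd45a (0.60), a DNA damage response gene, and Thbs1 (0.60), the antiangiogenic thrombospondin, and none was called lower. Thbs1 was the sole call with MS023 (0.48) and with GSK3368715 (0.55). The list's median was 0.10, -0.01 and 0.01 in the 3 comparisons. The cyclin-dependent kinase inhibitor genes of this list that passed the filter were not called.

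Cofactors of MYC (19 genes) included 2 calls in shPrmt1, Smarcb1 (-0.29), a subunit of the BAF remodelling complex, and Ep400 (-0.28), of the TIP60 complex. In MS023, 4 were called lower, among them Smarcb1 (-0.31) and Zbtb17 (-0.30), which encodes the MYC partner MIZ1. In GSK3368715, 0 were called, with 4 at an unadjusted p under 0.05, and DESeq2 called 1 and edgeR 0.

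Corepressors used by MXD and MNT proteins (11 genes) included Sin3b, which was called in all 3 comparisons. Sin3b, a SIN3 scaffold protein, was 935 ± 43.6 in shControl and 668 ± 25.7 in shPrmt1, and 3124 ± 143 in vehicle, 2058 ± 40.5 in MS023 and 2284 ± 14.0 in GSK3368715 (SD, n = 3). It fell by 0.49 (adjusted p = 0.00461 by limma), by 0.60 (adjusted p = 6.12e-05) and by 0.45 (adjusted p = 0.00103), with no overlap in any comparison. In shPrmt1 the other call was Rbbp4 (-0.24), a histone chaperone. With the inhibitors Sap30 fell (-0.24 and -0.25), whereas the histone deacetylase Hdac1 (0.30 and 0.28) and Sap18 (0.67 and 0.43) rose.

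The PRC1.6 list of MGA partners (11 genes) had 0 calls in shPrmt1, with 2 at an unadjusted p under 0.05, and 0 calls by edgeR and DESeq2. In MS023, Yaf2 (-0.28) and Cbx3 (-0.26) fell and E2f6 (0.19), the repressive E2F of the complex, rose. In GSK3368715, 0 were called, with 1 at an unadjusted p under 0.05 and 0 by edgeR and DESeq2.

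Factors that set MYC protein turnover (17 genes) are listed because protein was not measured. Set, an inhibitor of the phosphatase PP2A, fell in shPrmt1 (-0.45) and in MS023 (-0.40), and Fbxw7, the ubiquitin ligase subunit that marks MYC for degradation, rose in shPrmt1 (0.35). In MS023, 5 were called higher, led by Stub1 (0.29), Btrc (0.25) and Ppp2r5a (0.23), and Usp36 (-0.35), a nucleolar deubiquitinase, was called lower beside Set. In GSK3368715, Stub1 (0.24) and Ppp2r5a (0.21) were called, both higher.

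Regulators of Myc transcription and of its mRNA (16 genes tested) moved in both directions. In shPrmt1, Igf2bp2 (0.44) rose and Igf2bp1 (-0.31) fell, both being proteins that bind and stabilise mRNAs. In MS023, 3 were called higher, Stat3 (0.42), Zfp36 (0.22) and Igf2bp2 (0.17), and 3 lower, Elavl1 (-0.23), Tial1 (-0.23) and Cnbp (-0.19). In GSK3368715, Stat3 (0.30) rose and Fubp1 (-0.36), which binds a far upstream element of Myc, fell.

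Other bHLH-zipper and bHLH factors that bind E-boxes (10 genes tested) differed between the experiments in their calls. In shPrmt1, 3 fell, namely Bhlhe40 (-0.69) and Bhlhe41 (-0.52), repressors of the circadian system, and Usf2 (-0.68), an activator at CACGTG sites. In MS023, Bhlhe41 (0.38) and Mitf (0.23), a lysosomal and melanocyte factor, rose. In GSK3368715, 0 were called, with 3 at an unadjusted p under 0.05 and 0 by edgeR and DESeq2. Usf2 had groups without overlap in all 3 comparisons, at -0.68 in shPrmt1 and at 0.12 and 0.10 with the inhibitors, where it was not called (adjusted p = 0.144 and 0.328 by limma).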

How the data were processed

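RNA was sequenced as paired-end mRNA libraries from CT26 cells. The authors quantified genes with Salmon 1.4.0 on mm10 and deposited counts divided by DESeq2 size factors, so the values are signal per gene on a scale within each table (DESeq2 version and annotation release are not given in the sources used here). Every deposited value gave a whole number of reads within 0.01, with 100% of values whole. Separate deposited tables of the authors' own comparisons (fold changes and p-values) were not used. Depth was 17284091 to 93697833 reads per library, and zero counts allow up to 3 reads per library. These limits cover counting error only.

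Genes that reached 10 normalized counts in 3 or more libraries of a fit were tested on log2(normalized count + 1) with limma 3.58.1 (R 4.3.3, eBayes with a trend, two-sided), in 1 fit of 6 knockdown libraries and 1 of 9 inhibitor libraries, with Benjamini-Hochberg adjustment over all genes tested and a threshold of 0.05. A log2 fold change on this scale understates changes of low genes. edgeR 4.0.16 (quasi-likelihood) and DESeq2 1.42.0 were run on the recovered reads. Other alternatives were pseudocounts of 0.5 and 5, filters of none and 50, equal upper quartiles, equal totals, eBayes without the trend, a replicate block, only the groups compared, and each library left out. A GC covariate was added after the data were seen. The GC and length slopes were the median log2 deviation of genes in the highest 25% minus that in the lowest. The fits were tested on simulated data. Coordinates and lengths are from GENCODE vM21, which matched 34415 of 34432 gene IDs.

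The members and lists were chosen with earlier results of these data known. The genes named were all members, the relatives Mxi1, Mlxip and Mlxipl, and the MondoA and ChREBP targets. From each other list they were up to 3 called increases and 3 called decreases per comparison, and the 3 highest markers. A gene that this rule names is not reported here. The targeted gene, overlapping genes and the 3 genes most like Myc and Max were named too. Usf2 under the inhibitors was chosen after its values were seen. The design calls the libraries biological replicates.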

Additional observations from a re-analysis of the deposited data

Results flagged for a closer look

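Bhlhe41, a circadian repressor that binds E-boxes, was the sole gene of the lists called between the compounds, at -0.43 in GSK3368715 against MS023 (SE 0.08, adjusted p = 0.0493 by limma), with 2083 ± 68.8 normalized counts in MS023 and 1543 ± 86.8 in GSK3368715 (SD, n = 3). Its log2 fold change was also -0.52 in shPrmt1 and 0.38 in MS023, with groups that did not overlap in either, a difference that was not tested because the tables were normalized separately. Both of these were called (adjusted p = 0.0124 and 0.00612 by limma). For Myc all shPrmt1 libraries were above control (0.15, adjusted p = 0.153, not called) and all MS023 libraries below vehicle (-0.34, adjusted p = 0.0371, called in 4 of 9 fits without a library), and the difference was not tested.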

How the results depend on the processing

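None of the 5 calls on members reversed in any of the alternatives run, and of 640 alternative values of members 578 kept direction and side of the threshold, 28 lost a call, 10 gained one and 24 changed sign. The number of members called in shPrmt1 was 0, but 1 with the replicate block (Mxd4, adjusted p = 0.0288), 3 with the GC covariate and 0 to 1 without a library (1 without shPrmt1 replicate 2). In MS023 it was 3, and 1 to 4 without a library, with 1 (Mxd3) without MS023 replicate 3. In GSK3368715 it was 2, but 1 with no filter (Mxd4), 1 with no trend (Mxd3), 0 with the block, 0 with only the groups compared, and 0 to 2 without a library (0 without vehicle replicate 3, MS023 replicate 2 or 3, or GSK3368715 replicate 2 or 3). The block also ended the call on Myc in MS023 (adjusted p = 0.0654). Correlations of deviations between libraries of the same replicate number were 0.06 to 0.12 in the knockdown and -0.10 to 0.11 with inhibitors. Between different numbers they were -0.09 to 0.03 in the knockdown and -0.13 to 0.17 with inhibitors. In the knockdown the same-number values were thus all above the others, though small, and the labels do not say whether replicates were paired. The block changed no other call on a member.

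Genes called in shPrmt1 were 1684, but 2671 with the block, 3063 with the GC covariate and 652 to 2472 without a library (652, 883 and 723 without shControl replicate 1, 2 or 3, and 1072 without shPrmt1 replicate 3). In MS023 they were 3625, and 2409 to 3726 without a library (2409 without MS023 replicate 2). In GSK3368715 they were 1254, but 597 with only the groups compared and 586 to 1274 without a library (586, 757 and 778 without vehicle replicate 3 and GSK3368715 replicate 1 or 3). Between the compounds they were 67, but 38 with no filter, 8 with no trend, 4 with the block, 37 with the GC covariate, 377 by DESeq2 and 2 to 114 without a library (114, 28, 2 and 5 without vehicle replicate 2 or 3 and MS023 replicate 1 or 2). The cause of these shifts was not tested.

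List counts moved as follows. In shPrmt1, MYC cofactors went from 2 to 1 at the same total, turnover genes from 2 to 4 with the block and by DESeq2, and other E-box factors from 3 to 5 with the block. In MS023, the relatives Mxi1, Mlxip and Mlxipl went from 0 to 1 at the same total and by DESeq2, and MondoA targets from 2 to 1 by edgeR. In GSK3368715, Myc regulators went from 2 to 1 at the same total and with the block, MondoA targets from 1 to 2 at the same total, by edgeR and by DESeq2, cofactors from 0 to 1 and MYC-activated targets from 3 to 6 by DESeq2. Between the compounds, other E-box factors went from 1 to 0 with the block, and corepressors and turnover genes each from 0 to 1 by DESeq2.

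Sign changes were of uncalled values, with values over all libraries as far from 0 as -0.17 (Mnt in shPrmt1). In shPrmt1, Mga was 0.026 at the same total and -0.048 to 0.028 without a library, Mnt 0.071 with the GC covariate and -0.42 to 0.066 without a library, and Mxd1 -0.032 to 0.20. In MS023, Mga was 0.0017 with the GC covariate and -0.23 to 0.079 without a library. In GSK3368715, Mlx was 0.00056 at the same total and -0.11 to 0.069 without a library, Mga -0.085 to 0.23 and Mxd1 -0.072 to 0.079. Between the compounds, Mxd4 was 0.0065 with the GC covariate and -0.10 to 0.044 without a library, and the ranges without a library were -0.073 to 0.0019 for Mxd3, -0.18 to 0.0014 for Mnt, -0.056 to 0.015 for Mxi1, -0.17 to 0.037 for Mlxip and -0.43 to 0.0089 for Txnip.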

Other observations

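The genes whose pattern over libraries was most like that of Myc were Fez2 (mean Pearson r 0.97), Epha2 (0.94) and Dpysl3 (0.93), among 10173 genes with at least 50 normalized counts on average in both tables. The r was computed over 6 knockdown and 9 inhibitor libraries and then averaged, and for Fez2 it was 0.99 and 0.96. Those most like Max were Nol7 (0.86), Exosc9 (0.83) and Eny2 (0.81). The points share library, depth and treatment, and these values describe the libraries with no test.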
